A study of Homo sapiens with 9 samples.

Results

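The 35 genes described here drive or mark cell division, ranging over cyclins, mitotic kinases, the spindle checkpoint, kinetochores, motors and cytokinesis. They were taken by gene symbol, and all 35 had a row among the 34922 gene rows of the deposited table. All 35 passed the filter on low counts, as did 17073 rows in all. The libraries came from TC71, a human Ewing sarcoma cell line, grown in NSG mice, which lack mature lymphocytes and keep myeloid cells. Mice received 100 cells in Matrigel subcutaneously, and tumour cells were collected by flow cytometry once tumours measured 1.5 cm. There were 4 bone marrow metastasis libraries, 4 lung metastasis libraries and 1 primary tumour library. The labels name no drug or gene change for any group, and give neither the age of the mice nor the mouse behind each library. P-values therefore measure only the spread between these libraries, which may be technical.

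Cells enter mitosis when CDK1, bound to cyclins A and B, phosphorylates its substrates, and Polo and Aurora kinases then help build the spindle. The spindle checkpoint holds back anaphase until kinetochores are attached, after which CDC20 and the anaphase-promoting complex trigger the destruction of cyclin B and securin. Most of these transcripts accumulate in G2 and M phase. In bulk libraries such as these, fewer dividing cells and less RNA per dividing cell cannot be told apart.

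Bone marrow libraries held 14158315 to 17910782 estimated counts, lung libraries 11549807 to 13218789, and the primary library 12352474. Levels below are CPM, counts scaled to a common library total after TMM, and sets of 4 values are replicates 1 to 4 of a site. The 10 Ewing sarcoma markers summed to 1527.7 to 1838.0 CPM in bone marrow and 1751.5 to 2144.8 CPM in lung. For the primary tumour the sum was 2209.9 CPM. STEAP1 and CD99 were the highest of the 10 in every library, and FLI1 reached at most 0.765 CPM. Of 11 leukocyte markers, 8 stayed under 1 CPM in every library, and their sum was 1.63 to 8.51 CPM in bone marrow, 0.509 to 17.3 CPM in lung, with 1.92 CPM for the primary tumour. Erythroid markers summed to 17.2 to 115.5 CPM in bone marrow, 3.63 to 172.1 CPM in lung, with 8.06 CPM for the primary tumour, and ALAS2 was at 0 throughout. Megakaryocyte, endothelial and lung epithelium markers reached at most 0.254, 30.1 and 129.3 CPM in sum. In the authors' table, 7.35% to 7.75% of reads were mouse in bone marrow, 7% to 8.09% in lung, and 7.45% in the primary tumour.

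Most mitotic genes had higher levels in bone marrow than in lung metastases, but 0 of the 35 passed the edgeR quasi-likelihood test with Benjamini-Hochberg adjustment, where the background was 1 gene of 17073, or 0.00586%. By sign, 31 members were higher in bone marrow and 4 lower (AURKB, UBE2C, CENPA and CENPE), where 49.9% of all tested genes were higher. The members had a median log2 fold change of 0.67, and all tested genes one of 0.00. At an unadjusted edgeR p below 0.05, 10 members were higher in bone marrow, or 28.6%, against a background of 6.33%, and 0 were lower, against 3.88%. That count of 10 was 6 without bone marrow replicate 2, 4 without bone marrow replicate 3, 6 without lung replicate 3, and 6 when scaled by library size alone. DESeq2 called 2 members higher, TOP2A and TPX2, or 5.71% against 2.16% of its genes, and 0 lower, against 1.21%. Limma voom called 0 members, against 0.0351%.

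**Figure D1:**
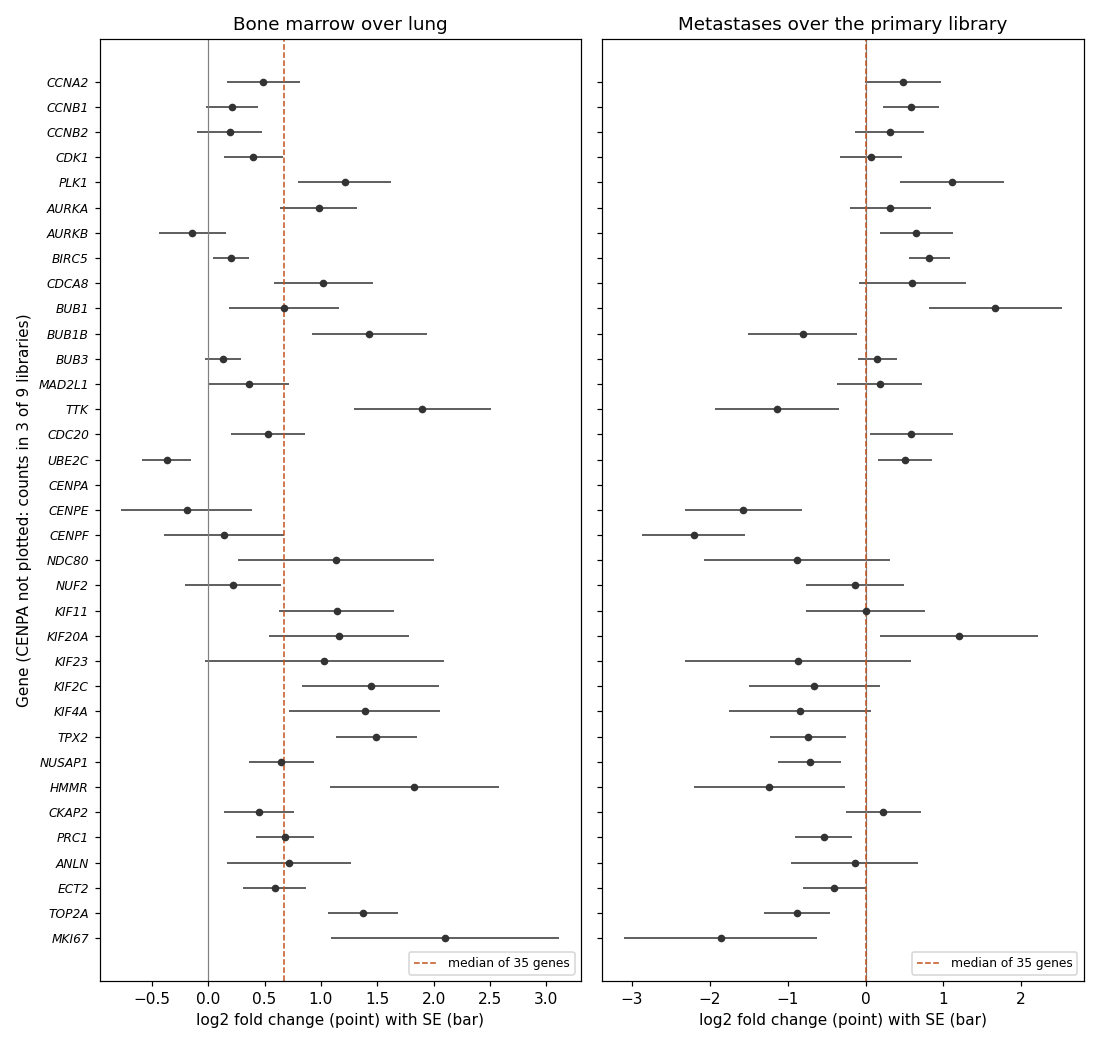
Log2 fold change (point) and standard error (bar) of each gene, for bone marrow over lung on the left and metastases over the primary library on the right. On the left 31 of 35 genes are above 0 with a median of 0.67 (dashed line), and on the right the median is 0.00. CENPA, with counts in 3 of 9 libraries, is not plotted.

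In 4 genes, TOP2A, TPX2, BUB1B and PRC1, every bone marrow library lay above every lung library. They are 11.4% of members, against 2.81% of all tested genes. In the opposite order there were 0 members, against 3.06%. When a library is left out, the count and the share of all tested genes can only stay or rise. The count was 12 without bone marrow replicate 1 (6.6% of all tested genes), 7 without bone marrow replicate 4 (4.32%) and 9 without lung replicate 2 (5.03%). It was 6 without bone marrow replicate 2 (4.53%) or lung replicate 1 (4.92%). It stayed at 4 without bone marrow replicate 3 (3.93%), lung replicate 3 (4.06%) or lung replicate 4 (4.48%). The 4 genes stay in each of these counts by construction.

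TOP2A encodes topoisomerase II alpha, which untangles sister chromatids (chromosome 17, 40388516 to 40417950, GRCh38). It was at 199.2, 228.6, 422.0 and 289.6 CPM in bone marrow, against 79.4, 97.7, 107.5 and 156.6 CPM in lung, while the primary library had 326.5 CPM. Every bone marrow library exceeded the highest lung library, and the primary library exceeded all metastases but bone marrow replicate 3. The log2 fold change of bone marrow over lung was 1.37 ± 0.31 (SE), with an edgeR unadjusted p of 0.00173, an edgeR adjusted p of 0.325 and a DESeq2 adjusted p of 0.00899.

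TPX2 targets Aurora A to spindle microtubules (chromosome 20, 31739271 to 31801805). It was at 171.0, 208.3, 260.7 and 288.6 CPM in bone marrow, against 125.2, 70.2, 39.8 and 96.4 CPM in lung, while the primary library had 231.0 CPM. The primary library fell inside the bone marrow range and above all lung libraries. The log2 fold change was 1.49 ± 0.36, with an edgeR adjusted p of 0.331 and a DESeq2 adjusted p of 0.013. AURKA, the kinase that TPX2 activates, was at 143.9, 244.9, 367.7 and 256.6 CPM in bone marrow, against 169.9, 147.9, 78.5 and 117.1 CPM in lung. Bone marrow replicate 1 lay within the lung range for AURKA and the other 3 lay above it (log2 fold change 0.98 ± 0.34, edgeR adjusted p = 0.441).

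BUB1B encodes the checkpoint protein BUBR1, which restrains CDC20 (chromosome 15, 40161023 to 40221136). It was at 48.3, 70.9, 91.7 and 71 CPM in bone marrow, against 25.9, 35.6, 36.8 and 6.61 CPM in lung, while the primary library had 75.6 CPM (log2 fold change 1.43 ± 0.51, edgeR adjusted p = 0.457). Lung replicate 4 was the lowest by a wide margin. PRC1 bundles antiparallel microtubules of the central spindle (chromosome 15, 90966038 to 90995629). It was at 124.2, 127.0, 148.7 and 116.9 CPM in bone marrow, against 95.7, 104.4, 57.4 and 65.7 CPM in lung, while the primary library had 148.8 CPM. PRC1 had the tightest bone marrow values of the 35 genes, with a coefficient of variation of 10.6% (log2 fold change 0.68 ± 0.26, edgeR adjusted p = 0.475). Exons of PRC1 share 3181 bases, and those of BUB1B 457 bases, with another annotated gene on the same strand, so reads there could belong to either.

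**Figure D2:**
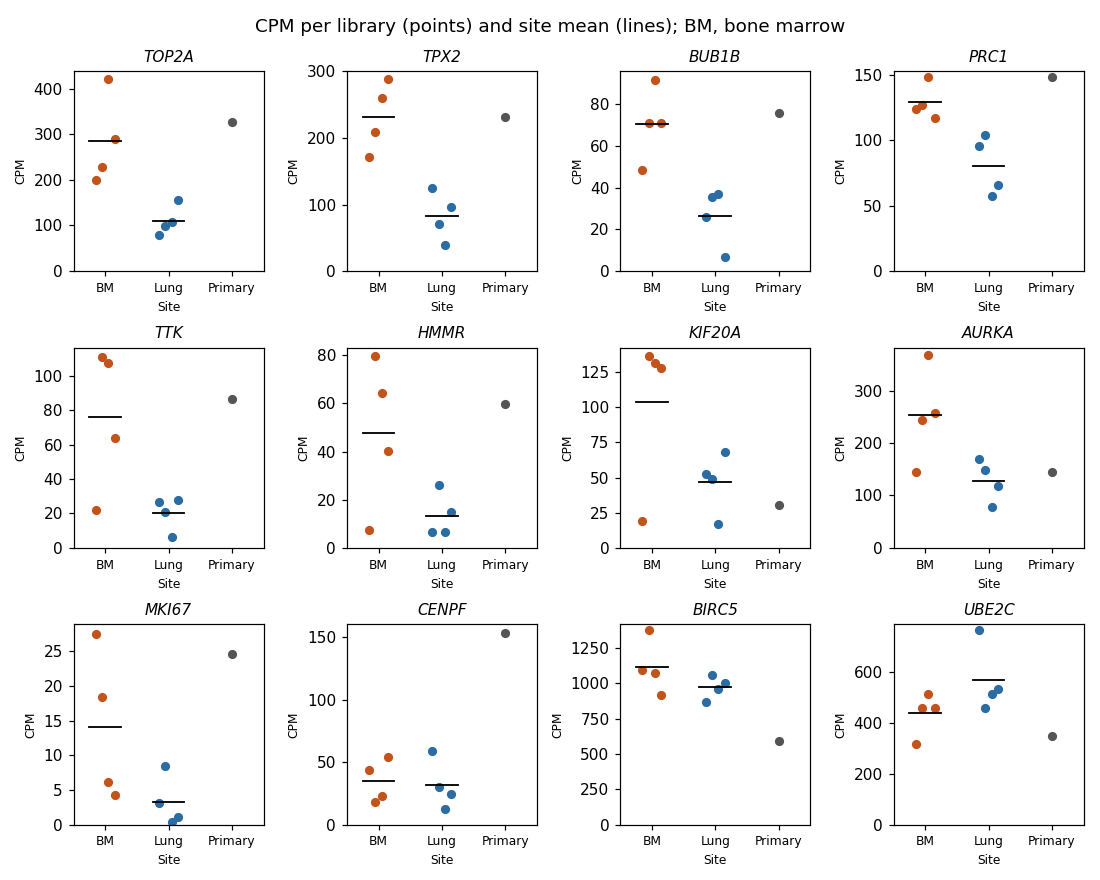
CPM of 12 genes in each library (points) with the mean of each metastatic site (lines), for bone marrow, lung and the primary tumour. TOP2A, TPX2, BUB1B and PRC1 show no overlap between bone marrow and lung, TTK, HMMR, KIF20A and AURKA overlap through bone marrow replicate 1, and CENPF is highest in the primary library.

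Many mitotic genes share a promoter element, the cell cycle homology region, which the MuvB complex binds with repressors in resting cells and with B-MYB and FOXM1 in dividing ones. Its letters TTTGAA were searched on both strands in RefSeq promoter windows (GRCh38.p14, 250 bases before to 50 after each start). By symbol 29 members matched, with 32 windows. The members not matched were AURKA, BIRC5, BUB3, TTK, UBE2C and TPX2. The element was in 23 of the 32 windows, or 71.9%, against 15.2% of all 35116 windows. It began within 50 bases before the start in 13 of them, or 40.6%, against 2.56% of all windows. CCAAT, the letters bound by NF-Y, was in 75% of the members' windows, against 34.6% of all. The 21 genes with TTTGAA had a median log2 fold change of 0.72 in bone marrow over lung, and the 8 genes whose window lacked it 0.47. A match describes letters and is not a bound site.

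These 6 windows belong to the genes with the smallest p for bone marrow over lung among those holding TTTGAA, and show where the element lies. Capitals mark TTTGAA or its reverse TTCAAA and CCAAT or its reverse ATTGG, which can adjoin or overlap. Each is written 5′ to 3′ on the strand of its gene.
TOP2A: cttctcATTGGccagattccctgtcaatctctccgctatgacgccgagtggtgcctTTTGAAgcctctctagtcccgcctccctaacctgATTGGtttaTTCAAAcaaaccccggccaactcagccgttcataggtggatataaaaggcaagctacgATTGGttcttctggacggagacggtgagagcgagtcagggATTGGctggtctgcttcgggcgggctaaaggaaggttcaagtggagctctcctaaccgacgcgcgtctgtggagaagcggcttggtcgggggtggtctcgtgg
PLK1: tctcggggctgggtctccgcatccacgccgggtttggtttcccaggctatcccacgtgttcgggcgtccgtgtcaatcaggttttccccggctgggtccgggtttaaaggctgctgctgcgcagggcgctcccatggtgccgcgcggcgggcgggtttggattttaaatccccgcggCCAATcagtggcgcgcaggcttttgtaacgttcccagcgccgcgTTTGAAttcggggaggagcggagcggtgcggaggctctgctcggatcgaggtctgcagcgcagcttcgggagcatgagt
BUB1B: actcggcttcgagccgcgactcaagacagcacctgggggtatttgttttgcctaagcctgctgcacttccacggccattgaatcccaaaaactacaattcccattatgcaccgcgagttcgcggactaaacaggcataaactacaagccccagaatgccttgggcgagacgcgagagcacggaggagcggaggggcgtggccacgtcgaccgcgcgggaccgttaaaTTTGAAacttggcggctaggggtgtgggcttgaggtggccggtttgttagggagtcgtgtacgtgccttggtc
PRC1: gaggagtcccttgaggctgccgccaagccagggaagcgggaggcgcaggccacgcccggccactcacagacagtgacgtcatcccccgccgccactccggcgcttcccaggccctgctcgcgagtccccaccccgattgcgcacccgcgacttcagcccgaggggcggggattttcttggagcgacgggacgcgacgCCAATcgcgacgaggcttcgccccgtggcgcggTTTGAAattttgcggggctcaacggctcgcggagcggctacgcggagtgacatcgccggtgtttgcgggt
HMMR: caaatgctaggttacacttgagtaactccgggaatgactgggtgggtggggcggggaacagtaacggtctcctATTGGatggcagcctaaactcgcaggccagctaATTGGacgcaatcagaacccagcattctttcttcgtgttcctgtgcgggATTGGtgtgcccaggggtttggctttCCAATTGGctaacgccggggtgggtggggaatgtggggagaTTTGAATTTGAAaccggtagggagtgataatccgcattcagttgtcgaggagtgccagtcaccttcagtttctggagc
CDCA8: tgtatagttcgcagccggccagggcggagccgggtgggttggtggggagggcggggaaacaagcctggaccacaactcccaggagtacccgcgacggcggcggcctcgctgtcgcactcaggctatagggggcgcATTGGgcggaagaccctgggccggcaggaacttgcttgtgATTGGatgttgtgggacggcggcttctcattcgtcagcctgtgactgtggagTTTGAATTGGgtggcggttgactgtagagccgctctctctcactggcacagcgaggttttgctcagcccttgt
The windows are chr17:40417847-40418146 on the minus strand (TOP2A), chr16:23678639-23678938 on the plus strand (PLK1), chr15:40160819-40161118 on the plus strand (BUB1B), chr15:90994486-90994785 on the minus strand (PRC1), chr5:163460382-163460681 on the plus strand (HMMR) and chr1:37692266-37692565 on the plus strand (CDCA8). TTTGAA began at -29 from the start in PLK1, -23 in BUB1B, -20 in PRC1 and -23 in CDCA8, and HMMR had adjoining copies at -28 and -22. In TOP2A the element lay farther out, at -194 and, reversed, at -151.

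The cyclins and CDK1 overlapped between sites. Cyclin B1 (CCNB1) was at 424.4, 918.6, 718.6 and 611.0 CPM in bone marrow, against 565.1, 569.5, 613.5 and 564.7 CPM in lung, while the primary library had 415.4 CPM. Lung libraries varied by 4.08% (coefficient of variation), the tightest lung values of the 35 genes, and bone marrow libraries lay on both sides of them. CDK1 averaged 493.8 ± 139.6 CPM in bone marrow, against 373.7 ± 101.1 CPM in lung (SD, n = 4 each, as in the means that follow). Cyclin A2 (CCNA2) averaged 98.5 ± 22.2 CPM in bone marrow, against 70.1 ± 23.1 CPM in lung, and cyclin B2 (CCNB2) averaged 169.0 ± 66 CPM in bone marrow, against 148.0 ± 21.7 CPM in lung. Their log2 fold changes ran from 0.19 to 0.49, with edgeR adjusted p of 0.594 to 0.862, and that of CCNB2 changed sign without bone marrow replicate 2 (-0.11).

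Polo-like kinase 1 (PLK1), which acts at centrosomes, kinetochores and the midzone, was at 67.7, 45.4, 93.4 and 116.4 CPM in bone marrow, against 23.8, 55.6, 29.7 and 29.9 CPM in lung, while the primary library had 24.5 CPM. The sites overlapped through bone marrow replicate 2 and lung replicate 2 (log2 fold change 1.21 ± 0.41, edgeR adjusted p = 0.436). In the chromosomal passenger complex, survivin (BIRC5) averaged 1116.2 ± 191.5 CPM in bone marrow, against 973.7 ± 79.3 CPM in lung (SD, n = 4 each). Borealin (CDCA8) was at 72.7, 106.6, 110.2 and 46.3 CPM in bone marrow, against 59.2, 29.1, 21.2 and 56.6 CPM in lung (log2 fold change 1.02 ± 0.44, edgeR adjusted p = 0.486). The kinase Aurora B (AURKB) averaged 74.4 ± 9.53 CPM in bone marrow, against 81.8 ± 25.6 CPM in lung, with the bone marrow values inside the lung range and a sign that changed without lung replicate 1 (log2 fold change -0.14 ± 0.30, 0.0561 without it).

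Among the checkpoint genes, the kinase TTK, which recruits the others to unattached kinetochores, was at 21.8, 111.1, 107.2 and 63.6 CPM in bone marrow, against 26.6, 20.6, 6.29 and 28 CPM in lung, while the primary library had 86.5 CPM. Bone marrow replicate 1 lay among the lung libraries and the other 3 lay above them (log2 fold change 1.90 ± 0.61, edgeR adjusted p = 0.428). The kinase BUB1 was at 23.6, 61.3, 112.4 and 92.8 CPM in bone marrow, against 54.3, 58, 25.7 and 44.4 CPM in lung, while the primary library had 18.1 CPM. Here bone marrow replicate 1 was below every lung library and the other 3 were above them. BUB3, which anchors BUB1 and BUBR1, averaged 896.3 ± 139.5 CPM in bone marrow, against 821.9 ± 89.2 CPM in lung. MAD2L1, which encodes the checkpoint inhibitor MAD2, was at 102.9, 62.5, 47.5 and 39.4 CPM in bone marrow, against 46.9, 42.1, 62.3 and 45.3 CPM in lung, and bone marrow replicate 1 alone stood above the lung range by a wide margin.

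The ubiquitin genes had opposite signs. UBE2C, the ubiquitin-conjugating enzyme of the anaphase-promoting complex, was at 319.4, 459.8, 514.1 and 457.3 CPM in bone marrow, against 765.8, 459.7, 512.6 and 532.1 CPM in lung, while the primary library had 350.6 CPM (log2 fold change -0.37 ± 0.22, edgeR adjusted p = 0.558). CDC20, the activator of that complex, was at 114.0, 195.0, 163.1 and 105.1 CPM in bone marrow, against 121.5, 134.8, 85 and 58.2 CPM in lung (log2 fold change 0.53 ± 0.33, edgeR adjusted p = 0.582). The sites overlapped for both genes.

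Centromere and kinetochore genes were mixed. CENPA, the centromeric histone, had no counts in 5 of the 8 metastasis libraries or in the primary library, where a count of 0 allows up to 0.23 CPM. It reached 2.62 and 2.15 CPM in bone marrow replicates 2 and 4, and 12.7 CPM in lung replicate 2. NDC80, the microtubule-binding subunit of the outer kinetochore, was at 44.2, 69.3, 87.1 and 65.3 CPM in bone marrow, against 21.6, 78.9, 1.41 and 19.4 CPM in lung. Lung replicate 2 lay within the bone marrow range and the other 3 lay below it (log2 fold change 1.13 ± 0.87, edgeR adjusted p = 0.668). Its partner NUF2 ranged over 76.1 to 144.0 CPM in bone marrow, against 36.6 to 152.6 CPM in lung. The kinesin CENPE ranged over 8 to 26 CPM in bone marrow, against 7.03 to 32.5 CPM in lung, and the large kinetochore protein CENPF over 18.1 to 54.2 CPM in bone marrow, against 12.9 to 58.7 CPM in lung. The sign changed for NUF2 without lung replicate 1, for CENPE without bone marrow replicate 2, lung replicate 1 or lung replicate 4, and for CENPF without bone marrow replicate 4 or lung replicate 3.

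The 5 genes grouped as motors were higher in bone marrow by sign, with log2 fold changes of 1.03 to 1.44 and edgeR adjusted p of 0.486 to 0.768. The kinesin CENPE, grouped above with the kinetochore genes, was lower by sign (log2 fold change -0.19 ± 0.58). KIF20A, which moves the passenger complex to the midzone, was at 19.3, 136.5, 131.3 and 128.1 CPM in bone marrow, against 52.2, 49.1, 17 and 68.2 CPM in lung, while the primary library had 30.2 CPM. Bone marrow replicates 2 to 4 lay close together and replicate 1 sat at the low end of lung. KIF2C, which depolymerises misattached microtubules, was at 38, 134.7, 97.7 and 73.1 CPM in bone marrow, against 32.7, 66.3, 12.7 and 14.6 CPM in lung. KIF11, which pushes spindle poles apart, was at 23.5, 49.6, 125.1 and 56 CPM in bone marrow, against 24.5, 40.7, 20.4 and 29.9 CPM in lung. For both, bone marrow replicates 2 to 4 lay above every lung library. The chromokinesin KIF4A was at 32.9, 29, 46 and 19.9 CPM in bone marrow, against 28.1, 8.44, 9.68 and 2.76 CPM in lung. KIF23, a motor of centralspindlin, was at 47.4, 11.7, 67.7 and 43.3 CPM in bone marrow, against 39.1, 40.2, 0.828 and 3.2 CPM in lung. Lung replicates 1 and 2 lay inside the bone marrow range of KIF23, and lung replicates 3 and 4 far below it. Exons of KIF20A, KIF23, KIF2C and KIF4A overlap those of opposite-strand genes.

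Among the other microtubule-associated genes, HMMR, a spindle protein, was at 7.47, 79.5, 64.1 and 40.2 CPM in bone marrow, against 6.45, 25.9, 6.46 and 14.8 CPM in lung, while the primary library had 59.8 CPM. Bone marrow replicate 1 lay near the bottom of the lung range (log2 fold change 1.83 ± 0.75, edgeR adjusted p = 0.485). NUSAP1, which binds microtubules near chromosomes, averaged 350.0 ± 95.7 CPM in bone marrow, against 223.2 ± 75.9 CPM in lung, and CKAP2, which stabilises spindle microtubules, averaged 271.6 ± 71.6 CPM in bone marrow, against 198.9 ± 71.6 CPM in lung. NUSAP1 exons share 1787 bases with another annotated gene on the same strand, so reads there could belong to either. In cytokinesis, ECT2 activates RhoA at the cleavage site and averaged 115.9 ± 31.6 CPM in bone marrow, against 76.7 ± 14.8 CPM in lung (log2 fold change 0.59 ± 0.28, edgeR adjusted p = 0.49). ANLN, a scaffold of the contractile ring, averaged 42 ± 23.7 CPM in bone marrow, against 25.5 ± 10.1 CPM in lung (log2 fold change 0.72 ± 0.55, edgeR adjusted p = 0.667).

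MKI67, whose protein coats mitotic chromosomes and is the standard stain for dividing cells, was low throughout. It was at 27.5, 18.4, 6.12 and 4.3 CPM in bone marrow, against 3.14, 8.44, 0.331 and 1.16 CPM in lung, while the primary library had 24.6 CPM. Bone marrow replicates 1 and 2 lay above every lung library, and replicates 3 and 4 inside the lung range. Its log2 fold change of 2.10 ± 1.01 (edgeR adjusted p = 0.49) was the largest of the 35, and it was 1.56 without bone marrow replicate 1 and 3.18 without lung replicate 2. Within bone marrow MKI67 did not follow TOP2A, whose highest library was replicate 3.

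**Figure D3:**
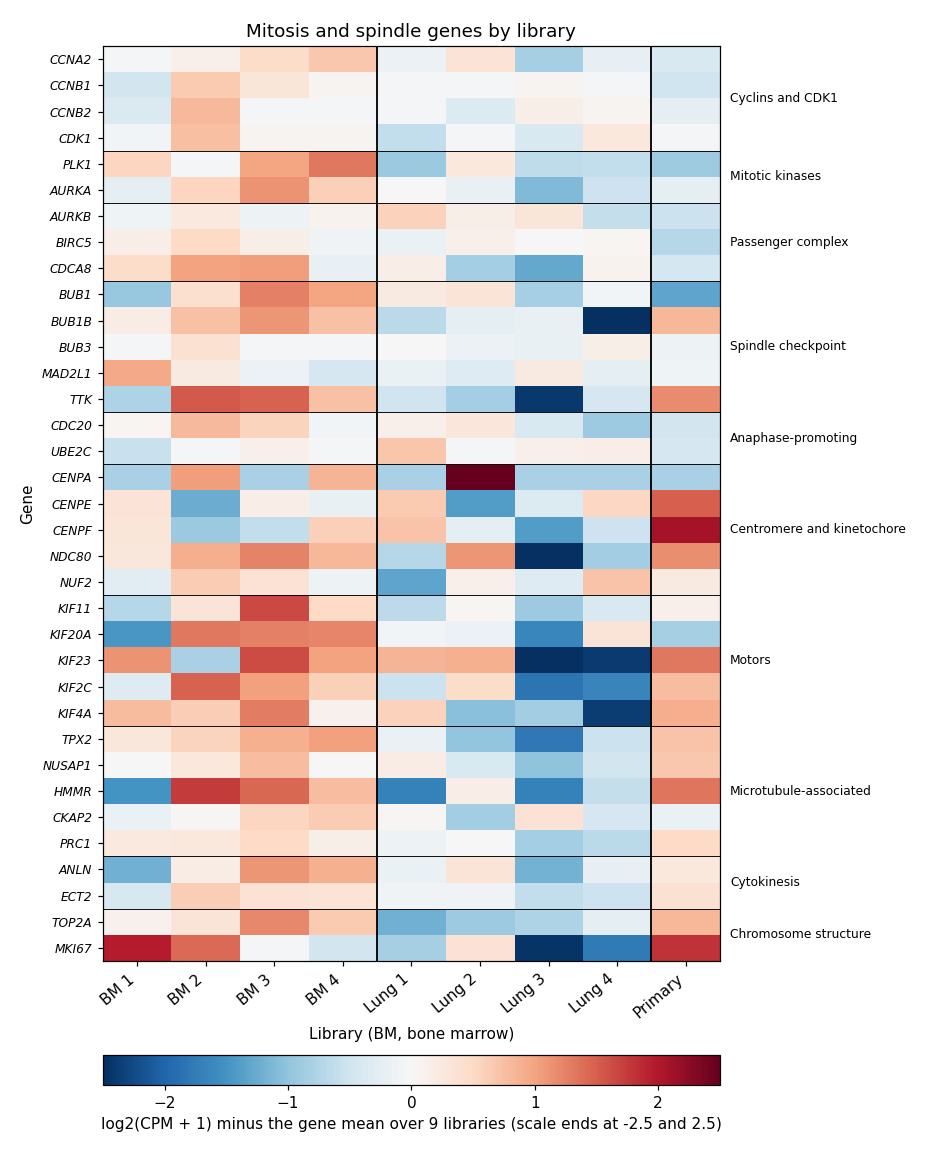
Each cell is log2(CPM + 1) of a gene in a library minus its mean over 9 libraries, with genes grouped by role and libraries ordered as bone marrow, lung and primary. Bone marrow replicates 2, 3 and 4 are above the mean for 30, 28 and 24 of 35 genes and bone marrow replicate 1 for 15, while lung replicate 3 is above it for 6.

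Libraries of a site were not alike. The median over the 35 genes of log2(CPM + 1) was 6.19, 6.81, 6.83 and 6.55 in bone marrow replicates 1 to 4, against 5.90, 6.15, 5.35 and 5.85 in lung replicates 1 to 4, and it was 6.38 in the primary library. Among the 8 metastasis libraries, bone marrow replicate 3 was highest for 12 members, or 34.3%, and it was highest for 12.9% of all tested genes. Lung replicate 3 was lowest for 16 members, or 45.7%. It alone was lowest for 14% of all tested genes, a share that does not count genes whose lowest value was tied between libraries. It also had the most tested genes without a count, 14.94%, against 6.95% to 11.85% in the other 8 libraries, and the part of this in the members' low values was not tested. Together the 35 genes took 0.511%, 0.724%, 0.75% and 0.652% of counts in bone marrow, against 0.559%, 0.568%, 0.444% and 0.558% in lung, and 0.586% in the primary library.

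**Figure D4:**
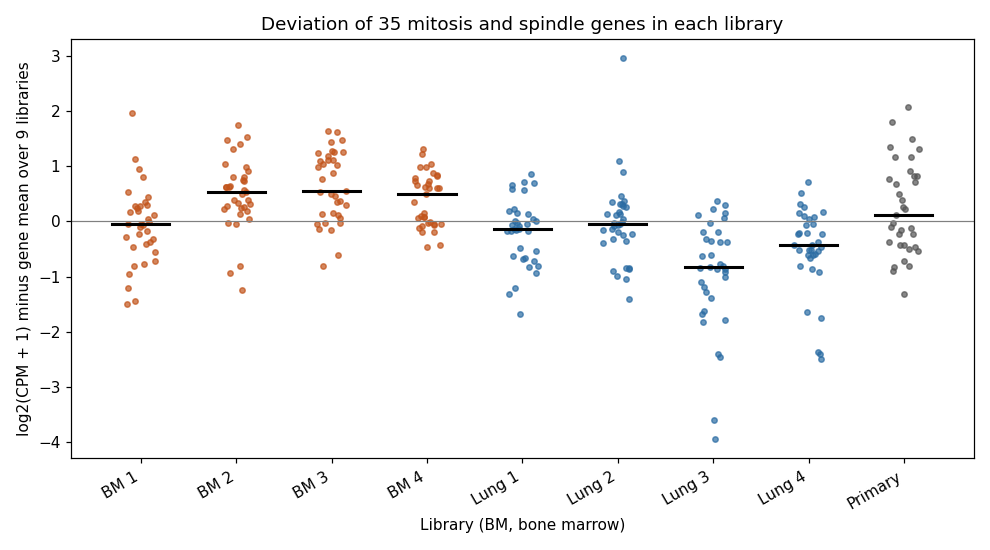
Deviation of each of the 35 genes from its mean over 9 libraries, in log2(CPM + 1), by library; black lines are medians. Medians are -0.05, 0.53, 0.56 and 0.50 in bone marrow replicates 1 to 4, -0.13, -0.04, -0.83 and -0.43 in lung replicates 1 to 4, and 0.12 in the primary library.

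Some library measures differed between sites as well. In the authors' table protein-coding reads made up 45.5%, 52.2%, 51.4% and 50.8% in bone marrow replicates 1 to 4, against 44.5% to 46.4% in lung, and 48.5% in the primary library. For this share bone marrow replicate 1 lay within the lung range. Human reads made up 77.59% to 79.1% in bone marrow, 72.67% to 77.34% in lung, and 78.09% in the primary library. Reads not aligned made up 18.9% to 20.3% in bone marrow, 20.4% to 24.7% in lung, and 19.7% in the primary library. Neither range overlapped between the metastatic sites. Mitochondrial ribosomal RNA took 0.0956% to 0.218% in bone marrow, 0.359% to 0.491% in lung, and 0.057% in the primary library. The nuclear RNAs MALAT1, NEAT1 and SNHG1 summed to 2524.4 to 4874.8 CPM in bone marrow, 3423.5 to 4539.7 CPM in lung, with 5499.8 CPM for the primary tumour. Their part in the result was not tested.

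By length of the longest coding transcript, the 12 members under 2500 bases had a median log2 fold change of 0.47 for bone marrow over lung. The 12 from 2500 to under 4000 bases had 1.09 and the 11 of at least 4000 bases 0.68. All tested genes with a length had medians of -0.04, 0.12 and 0.04 in these classes. By mean level over metastases, the 12 members under 50 CPM had a median of 1.13, the 12 from 50 to 150 CPM 0.63 and the 11 above 0.40, where all tested genes had -0.05, 0.13 and 0.08. By sign 10 of 12, 11 of 12 and 10 of 11 members were higher in bone marrow in these level classes. Of all tested genes 47.8%, 58.5% and 58.5% were higher there. After correction for the length and GC content of transcripts, 31 of 35 members had a positive sign for bone marrow over lung (median 0.51).

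**Figure D5:**
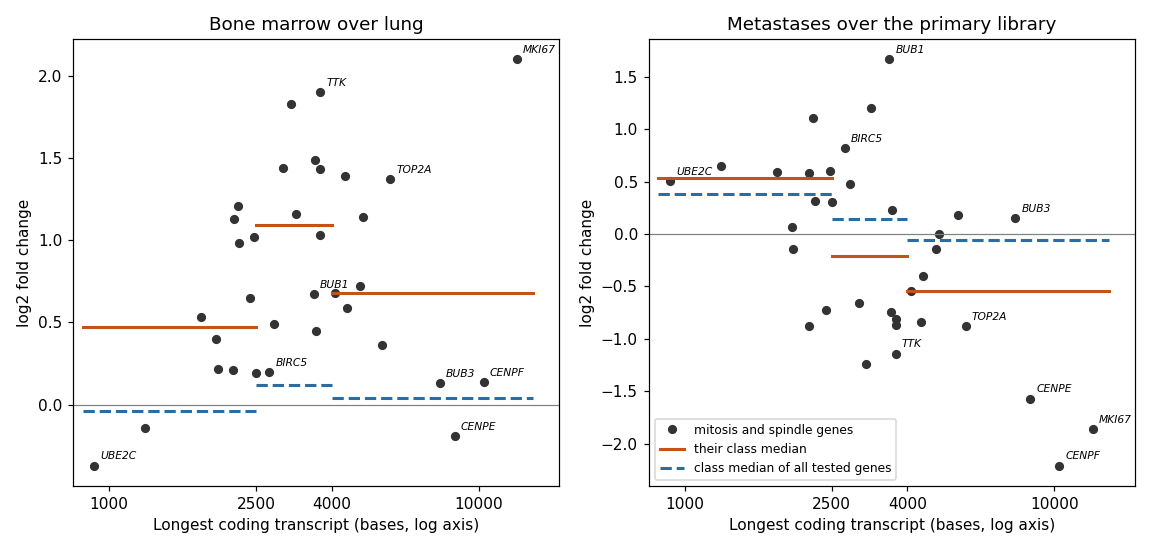
Log2 fold change of each gene against the length of its longest coding transcript (bases, log axis), with class medians of the members (solid) and of all tested genes (dashed); CENPA is left out of the points. For metastases over the primary library the members' class medians are 0.54, -0.21 and -0.54, in order of length.

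Per kilobase of that transcript, UBE2C, BIRC5, CCNB1 and CDK1 were the most abundant members at each site. They averaged 478.8, 411.7, 308.0 and 253.5 CPM per kilobase in bone marrow, against 620.9, 359.2, 266.6 and 191.9 in lung. MKI67 was near the low end, at 1.11 CPM per kilobase in bone marrow and 0.258 in lung. In the order of levels, 30 of 34 neighbouring pairs differed by less than the larger SD of the pair in bone marrow, and 30 of 34 in lung.

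A further 160 tested genes of division, in 8 lists, were examined. By sign 115 were higher in bone marrow than lung (median 0.32). In edgeR 0 passed after adjustment, while 21 were higher and 3 lower at an unadjusted p below 0.05, where the shares of all tested genes were 6.33% and 3.88%. DESeq2 gave an adjusted p for 154 of them and called 10 higher and 1 lower, where it called 2.16% and 1.21% of its genes, and limma voom called 0. Among other motors and spindle proteins 19 of 24 were higher (median 0.59), and DESeq2 called KIF15, SPAG5, DLGAP5 and RACGAP1. RACGAP1, the partner of KIF23 in centralspindlin, was at 209.2, 263.6, 294.2 and 239.4 CPM in bone marrow, against 107.1, 140.4, 35.9 and 97 CPM in lung, with no overlap (log2 fold change 1.40 ± 0.38). Among condensin, cohesin release and separase genes 14 of 16 were higher (median 0.72), and DESeq2 called 0. NCAPG2, a condensin II subunit with the smallest p of that list, was at 87.8, 141.9, 196.1 and 191.5 CPM in bone marrow, against 61.8, 70.8, 66.8 and 95.8 CPM in lung.

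Of other kinetochore genes 23 of 32 were higher (median 0.39). CENPP, a subunit of the inner kinetochore network, was at 80.4, 53.7, 59 and 52.5 CPM in bone marrow, against 38.7, 13.9, 12.1 and 9.15 CPM in lung, and every bone marrow library lay above every lung library (log2 fold change 1.74 ± 0.50, edgeR adjusted p = 0.381, DESeq2 adjusted p = 0.0227). Of genes of the anaphase-promoting complex 11 of 17 were higher (median 0.19). UBE2S, which extends the chains that UBE2C starts, was at 7.99, 4.46, 6.88 and 9.19 CPM in bone marrow, against 18.9, 27.8, 32.6 and 45.3 CPM in lung, and every bone marrow library lay below every lung library (log2 fold change -2.13 ± 0.46, edgeR adjusted p = 0.305, DESeq2 adjusted p = 4.58e-05). ANAPC1, a scaffold subunit, averaged 65.7 ± 25.2 CPM in bone marrow, against 20.1 ± 9.89 CPM in lung. Mitotic entry regulators were higher in 12 of 20 (median 0.14). BORA, a cofactor of Aurora A, was at 26.8 to 57.4 CPM in bone marrow, against 5.7 to 22.5 CPM in lung. CKS2, with the next smallest edgeR p of that list, was lower in bone marrow (log2 fold change -0.52 ± 0.24). Centriole and centrosome genes were higher in 13 of 17 (median 0.29).

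Of the factors that act through the promoter element, FOXM1 was at 2.96, 0.061, 0.834 and 6.13 CPM in bone marrow, against 0.848, 0, 0.331 and 0 CPM in lung, while the primary library had 1.46 CPM. MYBL2, which encodes B-MYB, ranged over 12.9 to 31.1 CPM in bone marrow, against 4.07 to 36.1 CPM in lung, with the bone marrow values inside the lung range. The list of DREAM and MuvB factors is wider and also holds E2F and RB family genes, and 13 of its 18 were higher (median 0.43). Of this list DESeq2 called E2F2 and RBL1. E2F2 was at 8.8 to 24.9 CPM in bone marrow, against 0.414 to 4.84 CPM in lung. RBL1 was at 9.55 to 26.3 CPM in bone marrow, against 0.993 to 8.37 CPM in lung. G1 cyclins, CDKs and CDK inhibitors were higher in 10 of 16 (median 0.09). CDKN2D and CDKN2B, with the smallest edgeR p of that list, were lower (log2 fold changes -2.43 ± 1.07 and -2.40 ± 1.35). Both were low, and CDKN2D ranged over 0.061 to 2.92 CPM in bone marrow, against 2.04 to 13.4 CPM in lung. CDKN2B was at 0.444, 0.183, 0.278 and 1.43 CPM in bone marrow, against 11.1, 0.774, 0.414 and 0.218 CPM in lung. Only lung replicate 1 stood above the bone marrow range of CDKN2B. Cyclin D1 (CCND1) ranged over 158.4 to 230.6 CPM in bone marrow, against 127.5 to 216.3 CPM in lung. The CDK inhibitor CDKN1A ranged over 0 to 2.85 CPM in bone marrow, against 0.0848 to 3.31 CPM in lung, while the primary library had 7.52 CPM.

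Against the primary tumour the mitotic genes did not lean one way. The single primary library is assumed to vary as the metastases do, and it has no replicate check. Of the 35 members 18 were higher in metastases and 17 lower, with a median log2 fold change of 0.00, where 57.5% of all tested genes were higher and their median was 0.17. In edgeR 0 members passed after adjustment, against a background of 0%. At an unadjusted edgeR p below 0.05, 1 member was higher and 1 lower, or 2.86% each, against 1.75% and 3.03%. DESeq2 called 1 member higher, CENPA, against 0.555%, and 0 lower, against 0.137%. CENPA had no count in the primary library or in 5 of the 8 metastasis libraries. Limma voom called 0, against 0.281%.

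CENPF was the member lower at that threshold (chromosome 1, 214603195 to 214664588). It was at 43.7, 18.1, 22.9 and 54.2 CPM in bone marrow and 58.7, 29.9, 12.9 and 24.4 CPM in lung metastases, against 153.2 CPM in the primary library, which lay above all 8 (log2 fold change -2.21 ± 0.66, edgeR unadjusted p = 0.00882, adjusted p = 0.741). BIRC5 was the member higher (chromosome 17, 78214186 to 78225636). It was at 1094.7, 1378.5, 1073.0 and 918.8 CPM in bone marrow and 871.8, 1060.2, 960.2 and 1002.4 CPM in lung metastases, against 589.6 CPM in the primary library, which lay below all 8 (log2 fold change 0.82 ± 0.26, edgeR unadjusted p = 0.0125, adjusted p = 0.823). The counts of 1 became 3 higher without bone marrow replicate 1, 3 lower without lung replicate 1, and 2 lower without bone marrow replicate 3 or without lung replicate 4. The primary library lay above all 8 metastases for CENPE, CENPF and PRC1, 8.57% of members against 10.1% of all tested genes. It lay below all 8 for CCNB1, BIRC5 and BUB1, 8.57% against 7.57%.

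By role, all 4 cyclin and CDK1 genes, both mitotic kinases, all 3 passenger genes, 3 of 5 checkpoint genes and both CDC20 and UBE2C had a positive sign in metastases over primary. CDK1 and MAD2L1, and KIF11 among the motors, changed sign when 1 library was left out. A negative sign was seen for 4 of 5 kinetochore genes, 3 of 5 motors, 4 of 5 microtubule-associated genes, ANLN, ECT2, TOP2A and MKI67. The members' median was 0.54 under 2500 bases, -0.21 from 2500 to under 4000 bases and -0.54 from 4000 bases, where all tested genes had 0.38, 0.14 and -0.06. After the correction for length and GC content, 19 of 35 had a positive sign.

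Bone marrow and lung were also set against the primary library one by one, and these comparisons share that library. In bone marrow 21 members were higher than in the primary library (median 0.22), where 58% of all tested genes were higher (median 0.17), and the members' median was 0.01 without bone marrow replicate 3. In edgeR 0 passed (background 0%), and at an unadjusted p below 0.05 PLK1 and BIRC5 were higher (background 1.55%) and CENPF lower (2.26%). DESeq2 called 0 higher (0.427%) and 0 lower (0.0737%), and limma voom called 0 (0%). Without bone marrow replicate 1 these 2 higher members became 4, and they became 1 without bone marrow replicate 3, bone marrow replicate 4 or lung replicate 4. The 1 lower member became 2 without lung replicate 2.

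In lung 14 members were higher than in the primary library (median -0.25), where 56.2% of all tested genes were higher (median 0.16). In edgeR 0 passed (background 0%), and at an unadjusted p below 0.05 TTK, CENPF, TPX2, NUSAP1, PRC1 and TOP2A were lower, or 17.1% against 4.12%, and BIRC5 was higher, against 2.33%. The higher count was 0 without lung replicate 2. The lower count fell in some fits with 1 library left out and rose in others. It also fell with library size alone and after the correction for length and GC content. The members' median was -0.39 without lung replicate 1 and -0.51 without lung replicate 4. It was -0.22 without both bone marrow replicate 1 and lung replicate 3, and -0.21 after the correction for length and GC content. DESeq2 called CENPA higher (background 0.743%) and 0 lower (0.339%), and limma voom called 0 (0.0234%). Within lung, CENPA had counts in replicate 2 alone, and the primary library had none. TOP2A had the smallest p of these genes, with a log2 fold change of -1.57 in lung over primary and -0.20 in bone marrow over primary. All 4 lung libraries lay below the primary library for 16 members, or 45.7%, against 21.7% of all tested genes. All 4 bone marrow libraries lay above it for 9 members, or 25.7%, against 15.5%.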

How the data were processed

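RNA of 9 TC71 libraries was prepared by low-input template switching, per the labels' protocols. The deposited expected counts per gene symbol are not scaled for depth. Per the submitters' processing notes Trim Galore and Salmon were used with build hg38. The authors' sample table holds the percent of reads by species and the fraction of reads by category. How it was made is not stated in the labels.

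Here 12 vector rows (at most 0.0133% of counts) were left out. Counts were rounded, filtered with filterByExpr, TMM-scaled and fitted with edgeR 4.0.16 (quasi-likelihood, 3 groups, 9 libraries). Standard errors are the absolute log2 fold change over the square root of F. Calls use adjusted p below 0.05. DESeq2 1.42.0 and limma 3.58.1 voom were alternatives, as were scaling, filters, libraries left out and a replicate block. The edgeR fit was checked with simulated counts. Over 36 library pairs, chi-square per degree of freedom was never under 79.9, so none was counted as a duplicate.

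The members and lists were chosen with earlier results of these data known. Any member may be named. Of other lists, the 2 smallest p per comparison and FOXM1, MYBL2, CDKN1A and CCND1 may be named, and SPAG5 was added after its values were seen. A gene of the other kinetochore list is not reported here. Gene positions and lengths are from GENCODE 29 (GRCh38). Whether counting used strand is not stated, and exons of 11 members overlap an opposite-strand gene, 4 a same-strand gene, and 8 have pseudogenes, so their reads are uncertain. A floor of 3 counts covers counting error only.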

Additional observations from a re-analysis of the deposited data

Results flagged for a closer look

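In 5 of 70 groups of 4 libraries, 1 library lay far from the other 3 for its gene, by Dixon's criterion, where chance gives about 1 in 20. Cyclin B1 was at 613.5 CPM in lung replicate 3, above 3 lung libraries at 565 to 569.5 CPM. CDK1 was at 701.6 CPM and BUB3 at 1105.5 CPM in bone marrow replicate 2, both above the other bone marrow libraries. CENPA was at 12.7 CPM in lung replicate 2 and had no counts in the other 3 lung libraries. KIF20A was at 19.3 CPM in bone marrow replicate 1, below 128 to 136.5 CPM in the other 3.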

How the results depend on the processing

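For bone marrow over lung, 30 to 32 members were higher in every setting run, and their median log2 fold change was 0.473 to 0.823. Members called stayed at 0 except for 2 in DESeq2. Genes called numbered 1, and this became 3 with at least 5 CPM in at least 4 libraries, 468 in DESeq2, 6 in limma voom, 0 without both bone marrow replicate 1 and lung replicate 3, 0 with the offset for length and GC, and 0 in each fit that left out 1 library. With the replicate number as a block, 0 genes and 0 members were called, and 31 of 34 tested members were higher. Deviations from the site mean had correlations of -0.035 to 0.024 between samples of the same number. Between samples of different numbers they were -0.049 to 0.044. Such values cannot show whether samples of the same number share a mouse, which the labels leave unstated. Members higher at an unadjusted p below 0.05 numbered 6 with library size alone and 4 to 15 with 1 library left out. The offset, this count and the counts without overlap under left-out libraries were added after seeing the data.

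The sign of 11 member values turned in bone marrow over lung, and 614 kept sign and call. With 1 library left out, values ran over -0.114 to 0.349 for CCNB2, -0.325 to 0.0561 for AURKB, -2.13 to 7.05 for CENPA, -0.481 to 0.107 for CENPE, -0.157 to 0.647 for CENPF and -0.0335 to 0.58 for NUF2. CENPA was 0.965 in limma voom, and CENPF -0.251 without both bone marrow replicate 1 and lung replicate 3. For metastases over primary, 16 to 19 members were higher, with medians of -0.175 to 0.113, and DESeq2 called 1. There 16 values turned and 542 kept sign and call. With 1 library left out, values ran over -0.0385 to 0.0999 for CDK1, -0.0425 to 0.264 for MAD2L1 and -0.279 to 0.0901 for KIF11. KIF11 was -0.00478 with median-ratio size factors and -0.00478 in DESeq2, -0.0724 with library size alone, -0.0232 with the 5 CPM filter and -0.0394 in limma voom. CDK1 was -0.0169 with library size alone. Without both of those libraries MAD2L1 was -0.0641 and ANLN 0.113, and ANLN was 0.0135 with the offset. The cause was not tested. The biological coefficient of variation over all genes was 0.925, which limits what 4 libraries a site can show.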
